A study of Homo sapiens with 4 samples.

Results

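The serine synthesis and one-carbon enzymes are 9 genes: PHGDH, PSAT1 and PSPH, which make serine, SHMT2, MTHFD2, MTHFD1L and ALDH1L2 of the mitochondrial folate branch, and SHMT1 and MTHFD1 of the cytosolic branch. They were taken by symbol and have 13 of the 47227 probes shared by both tables, and stand among 20044 genes with a probe. RNA came from cultures labelled HT-29, an established epithelial line from a human colorectal adenocarcinoma, on Illumina HumanHT-12 V4 BeadChips. GANT61, an inhibitor of the GLI transcription factors of the Hedgehog pathway, at 20 µM for 48 h, and a DMSO control were on chip 2. Cyclopamine, a steroidal alkaloid that binds the Hedgehog pathway protein Smoothened, at 20 µM for 48 h, and a control were on chip 1. The chip 1 control is DMSO by its title and tomatidine, a related alkaloid, by its source name, and it is called here the chip 1 control. Each group was 1 array from 1 culture, so no difference below has a replicate check or a p-value.

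Serine is made from a glycolytic intermediate in a chain of reactions: PHGDH oxidises 3-phosphoglycerate, PSAT1 transfers an amino group and PSPH removes the phosphate. The SHMT enzymes then move a carbon from serine to tetrahydrofolate, giving glycine. In mitochondria MTHFD2 and MTHFD1L carry that carbon on to formate, which leaves for the cytosol, where MTHFD1 joins it to folate again for purine, thymidylate and methionine synthesis. ALDH1L2 oxidises the mitochondrial carbon unit to carbon dioxide and yields NADPH. Proliferating cells and many tumours express this route at high levels, and the transcription factor ATF4 is known to activate several of its genes.

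The arrays of the chips did not carry the same cell type markers. Of 13 colonic epithelial markers, 2 were above background (detection p under 0.01) with cyclopamine and 2 in the chip 1 control, namely KRT8 and KRT18, against 10 with GANT61 and 10 in the chip 2 control. The summed deposited intensity of the list was 2593.1 with cyclopamine and 2625.8 in the chip 1 control, against 30390.3 with GANT61 and 36794.6 in the chip 2 control. EPCAM, an epithelial adhesion molecule, was above background on neither chip 1 array and on both chip 2 arrays. Of 11 mesenchymal markers, 6 were above background on each array of chip 1 and 3 on each array of chip 2. The chip 1 arrays therefore went against their HT-29 label, and each compound is set against its chip-mate control. Between 13453 and 17068 probes were above background per array (28.5% to 36.1%).

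Of the 9 enzymes, 8 had a probe above background on all 4 arrays. ALDH1L2 was above background on none, with normalised log2 intensities of 5.19 with GANT61, 4.99 in the chip 2 control, 5.28 with cyclopamine and 5.21 in the chip 1 control, so no change in it was detectable. With GANT61, 1 of the 8 measured enzymes was at least 1.5-fold lower than in the chip 2 control and 0 were higher. Of all 10439 genes tested, 9.29% were lower and 10.6% higher by that fold. With cyclopamine, 0 of 8 were at least 1.5-fold higher and 0 lower than in the chip 1 control, where 9.8% and 7.82% of 8999 genes were. The median log2 ratio of the 8 was -0.04 with GANT61 and -0.07 with cyclopamine, beside -0.01 over all genes tested in each comparison. In both comparisons these shares and medians lay near those of all genes. In bulk RNA, fewer cells of a type and less RNA per cell cannot be told apart.

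**Figure D1:**
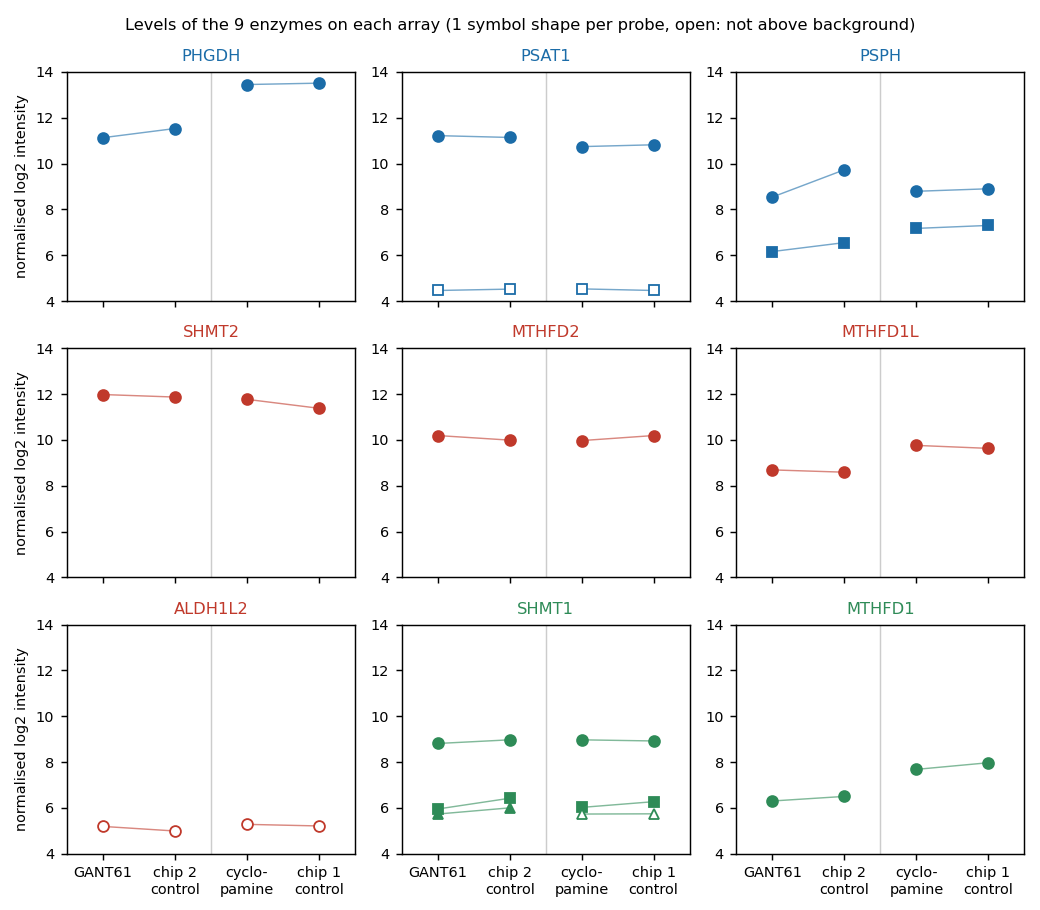
Normalised log2 intensity (vertical axis) of the 9 enzymes on each of the 4 arrays (horizontal axis), with 1 symbol shape per probe and open symbols where a probe was not above background. Lines join arrays of the same chip; PSPH has the steepest line on chip 2, and PHGDH and MTHFD1 stand higher on the chip 1 arrays than on the chip 2 arrays.

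In the serine synthesis chain, the brightest PSPH probe (ILMN_1776105) had a normalised log2 intensity of 8.54 with GANT61 and 9.73 in the chip 2 control, a log2 ratio of -1.19, or 2.28-fold lower. This was at percentile 1.0 of all genes tested and 4.4 times the SD between probes of the same gene in that comparison (0.27 on the log2 scale, from 2343 genes with at least 2 probes). The other PSPH probe (ILMN_2147114) had 6.16 with GANT61 and 6.55 in the chip 2 control, a log2 ratio of -0.39. Both probes were lower with GANT61, by different amounts, and the mean of both was -0.79. With cyclopamine the brightest probe had 8.79, against 8.90 in the chip 1 control, and the other 7.17, against 7.30. Their log2 ratios of -0.11 and -0.13 were smaller than the SD between probes on chip 1 (0.25, from 1823 genes).

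PHGDH, the first enzyme of the chain, had 11.13 with GANT61 and 11.53 in the chip 2 control. Its log2 ratio of -0.40 was at percentile 18.2 of all genes. Median scaling in place of quantile normalisation gave -0.61, past 1.5-fold, where the median of all genes was -0.20. With cyclopamine PHGDH had 13.45, against 13.51 in the chip 1 control, a ratio of -0.06.

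PSAT1, the aminotransferase, had 11.22 with GANT61 and 11.14 in the chip 2 control (log2 ratio 0.08), and 10.74 with cyclopamine and 10.82 in the chip 1 control (-0.08). Both differences were below the SD between probes, and the sign with GANT61 turned with the scaling, with values from -0.15 to 0.08 over the settings tried. The value of -0.15 came from median scaling, where the median of all genes was -0.20. The other PSAT1 probe (ILMN_1712563) was above background on no array.

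**Figure D2:**
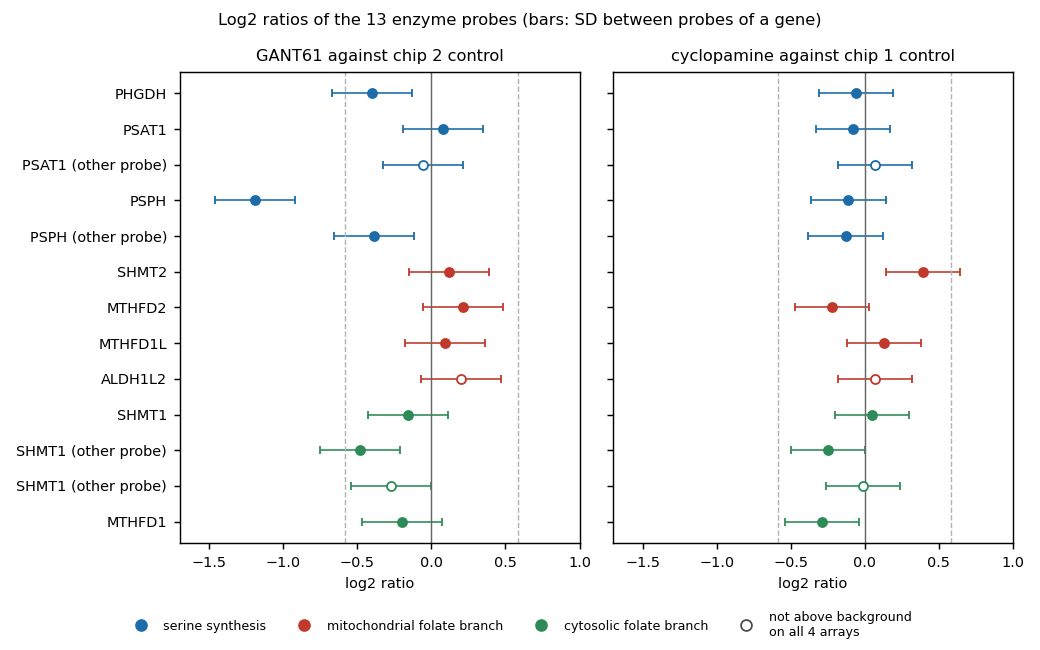
Log2 ratio (horizontal axis) of each of the 13 enzyme probes, GANT61 against the chip 2 control on the left and cyclopamine against the chip 1 control on the right. Bars are the SD between probes of a gene in that comparison, and dashed lines mark 1.5-fold. The brightest PSPH probe at -1.19 with GANT61 is the only point beyond a dashed line.

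In the mitochondrial branch, SHMT2, which splits serine to glycine there, had 11.98 with GANT61 and 11.87 in the chip 2 control, a log2 ratio of 0.12. With cyclopamine it had 11.77, against 11.38 in the chip 1 control, a ratio of 0.39 at percentile 82.2. The cyclopamine value was 1.59 times the SD between probes, and was 0.09 in the series table and 0.11 with median scaling, where the medians of all genes were -0.19 and -0.25.

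MTHFD2, the dehydrogenase and cyclohydrolase, had 10.19 with GANT61 and 9.99 in the chip 2 control (0.21), and 9.97 with cyclopamine and 10.19 in the chip 1 control (-0.22). Its signs stayed positive with GANT61 (0.03 to 0.21) and negative with cyclopamine (-0.52 to -0.21) under every normalisation setting tried. Averaged probes and other detection filters cannot move a gene with 1 probe that is above background on all arrays. The values of 0.21 and -0.22 are both below the SD between probes. MTHFD1L, which releases formate, had 8.69 with GANT61 and 8.59 in the chip 2 control (0.09), and 9.76 with cyclopamine and 9.63 in the chip 1 control (0.13). Both signs turned negative under median scaling (-0.09 with GANT61, -0.15 with cyclopamine) and in the series table (-0.04 and -0.15). The medians of all genes were lower still there, at -0.20 and -0.25 under median scaling and -0.11 and -0.19 in the series table.

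In the cytosolic branch, the brightest SHMT1 probe (ILMN_1811933) had 8.81 with GANT61 and 8.97 in the chip 2 control, a log2 ratio of -0.16. Its dimmer probes had -0.48 and -0.27, so the 3 probes were lower with GANT61, none by 1.5-fold. With cyclopamine the brightest probe had 8.97, against 8.92 in the chip 1 control (0.05), and the others -0.25 and -0.01, so the probes had no common sign. MTHFD1, the cytosolic enzyme of 3 activities, had 6.30 with GANT61 and 6.50 in the chip 2 control (-0.20), and 7.68 with cyclopamine and 7.97 in the chip 1 control (-0.29).

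In the 2 pairs of mitochondrial and cytosolic enzymes that were set side by side, the mitochondrial enzyme had the higher log2 ratio in both comparisons. MTHFD2 was in neither pair. With GANT61 its ratio (0.21) was above those of SHMT1 (-0.16) and MTHFD1 (-0.20). With cyclopamine its ratio (-0.22) was above that of MTHFD1 (-0.29) but below that of SHMT1 (0.05). SHMT2 exceeded SHMT1 by 0.28 with GANT61 and 0.34 with cyclopamine. MTHFD1L exceeded MTHFD1 by 0.29 with GANT61 and 0.42 with cyclopamine. These differences do not depend on how the arrays are scaled by a constant, and they were positive under the 7 normalisation and probe settings tried (0.16 to 0.42 and 0.20 to 0.32 with GANT61, 0.29 to 0.46 and 0.26 to 0.45 with cyclopamine). In the main setting they were near or below the SD expected of a difference of 2 probes (0.38 on chip 2, 0.35 on chip 1). There only MTHFD1L and MTHFD1 with cyclopamine exceeded this technical spread, by little. With averaged probes SHMT2 over SHMT1 also exceeded it, at 0.42 with GANT61 and 0.46 with cyclopamine. Normalised within each chip, that pair had 0.36 with cyclopamine.

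Promoter windows of RefSeq (GRCh38.p14), from 250 bases before to 50 after a start site, were at hand for 6 of the 9 genes: PHGDH, PSAT1, MTHFD2, MTHFD1L, SHMT1 and MTHFD1. They were searched on both strands for TGATGNAA, the composite element that ATF4 binds with C/EBP partners, for TGACNNNGC, the core of the antioxidant response element, and for the E-box CACGTG, which MYC binds. Of 35116 windows, 3.62%, 13.3% and 7.26% held these motifs. The 4 windows shown are those of PHGDH, the enzyme that differed most between the control cultures, of both measured enzymes of the mitochondrial branch that had a window, and of MTHFD1, the cytosolic relative of MTHFD1L. Capitals mark the matches.
PHGDH, chr1:119711684-119711983, plus strand: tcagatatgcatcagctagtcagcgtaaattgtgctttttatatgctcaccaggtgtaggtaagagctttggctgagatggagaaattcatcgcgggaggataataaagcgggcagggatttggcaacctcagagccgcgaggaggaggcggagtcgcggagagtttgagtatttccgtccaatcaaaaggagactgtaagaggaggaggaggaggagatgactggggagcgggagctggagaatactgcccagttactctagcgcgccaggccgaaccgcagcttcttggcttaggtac
MTHFD2, chr2:74198365-74198664, plus strand: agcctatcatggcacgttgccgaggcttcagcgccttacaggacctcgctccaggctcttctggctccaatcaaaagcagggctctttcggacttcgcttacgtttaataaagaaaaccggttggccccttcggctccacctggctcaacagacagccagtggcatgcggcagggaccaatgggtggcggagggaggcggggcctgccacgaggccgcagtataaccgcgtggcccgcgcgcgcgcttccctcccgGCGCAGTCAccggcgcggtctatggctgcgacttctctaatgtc
MTHFD1L, chr6:150866236-150866535, plus strand: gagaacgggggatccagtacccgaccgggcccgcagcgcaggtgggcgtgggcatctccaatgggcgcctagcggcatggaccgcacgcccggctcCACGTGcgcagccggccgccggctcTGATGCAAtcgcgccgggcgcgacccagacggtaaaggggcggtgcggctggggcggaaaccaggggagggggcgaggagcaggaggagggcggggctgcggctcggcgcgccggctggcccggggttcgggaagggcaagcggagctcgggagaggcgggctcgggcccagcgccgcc
MTHFD1, chr14:64388103-64388402, plus strand: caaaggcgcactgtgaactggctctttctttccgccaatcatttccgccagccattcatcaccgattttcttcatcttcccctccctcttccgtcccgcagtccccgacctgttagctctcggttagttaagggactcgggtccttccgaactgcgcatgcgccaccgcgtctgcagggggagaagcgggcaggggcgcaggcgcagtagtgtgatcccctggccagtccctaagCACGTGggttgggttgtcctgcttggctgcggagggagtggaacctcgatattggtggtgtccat

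The MTHFD1L window shown held TGATGCAA, whose first base lay 129 bases before its start site, and an E-box 154 bases before it. RefSeq lists 4 MTHFD1L start sites, and 3 of the windows overlap and share these matches. Counted from the other start sites of the overlapping windows, TGATGCAA began 90 bases before the start or 25 bases into the transcript. The E-box began 115 bases or 1 base before them. MTHFD1 had an E-box 15 bases before its start, and MTHFD2 a match to the antioxidant core on the minus strand beginning 7 bases into the transcript. No match was found in the PHGDH, PSAT1 and SHMT1 windows. These are letter matches in short windows and say nothing of binding. MTHFD1L had a log2 ratio of 0.09 with GANT61, and PSAT1, with no match in its window, 0.08. Both values are below the SD between probes (0.27), and a link between motif and ratio was not tested.

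In a list of 16 genes that ATF4 activates or that act with it, 15 were tested with GANT61. The list was chosen with earlier results of these data known, so its counts are a description and no independent test. Of these, 9 were at least 1.5-fold higher than in the chip 2 control, 0 were lower, and the median was 1.05 on the log2 scale, where 10.6% of all genes were higher by that fold. Against the same 10.6%, the count of 0 of the 8 measured enzymes is near that of all genes. DDIT3, the stress transcription factor CHOP, had 10.15 with GANT61 and 7.49 in the chip 2 control, 6.33-fold higher. ATF3, another stress factor, was 5.30-fold higher, TRIB3, a pseudokinase, 3.86-fold, and SLC7A11, the cystine transporter, 2.92-fold. CEBPB, a partner of ATF4, CHAC1, which degrades glutathione, the amino acid transporter genes SLC3A2 and SLC7A5, and the lipoprotein receptor gene VLDLR had log2 ratios of 1.25, 1.11, 1.07, 0.81 and 1.05. Over the 7 normalisation and probe settings ATF3 ranged from 0.87 to 2.41, SLC7A11 from 0.94 to 1.71 and VLDLR from 0.52 to 1.05, each positive throughout. ATF4 itself had 0.49 at its brightest probe and 0.08 and 0.35 at the others. The other 5 tested genes of the list were short of 1.5-fold. ASNS, the asparagine synthetase, had -0.12 at its brightest probe and -0.40 at the other. The values of the amino acid transporter genes SLC1A5 (-0.42) and SLC1A4 (-0.01), of SESN2 (0.39) and of PCK2, the mitochondrial PEP carboxykinase (-0.18), are given after they were seen, so that all 15 are accounted for. The other PCK2 probes had -0.56 and -0.28.

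With cyclopamine, 2 of 14 tested genes of that list were at least 1.5-fold higher than in the chip 1 control and 1 lower, with a median of 0.24. Over all genes 9.8% were higher and 7.82% lower, so these counts were near the general share. TRIB3 was 2.17-fold higher and STC2, a secreted glycoprotein, 1.94-fold, whereas DDIT3 was 2.07-fold lower. ASNS had 0.22. PCK2 had 0.55 at its brightest probe and 0.11 and -0.21 at the others, so its probes had no common sign. The stress factor DDIT3 thus stood on opposite sides in the comparisons, in cultures that also differed in their markers. The control levels of DDIT3 differed too. It had 9.17 with cyclopamine and 10.22 in the chip 1 control, near its level of 10.15 with GANT61. The chip 2 control, at 7.49, was 6.63-fold below the other control. Taking chip 1 over chip 2, 8 of 16 tested genes of the list were at least 1.5-fold higher and 5 lower between the controls. Over all genes 29.4% were higher and 34.3% lower by that fold.

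**Figure D3:**
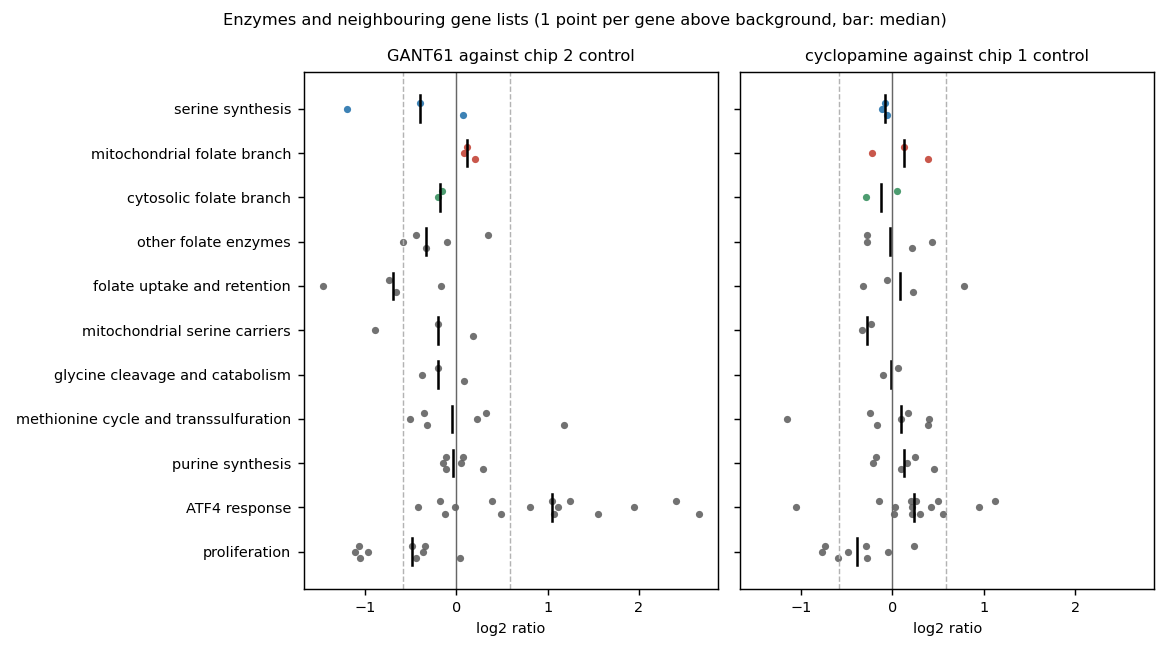
Log2 ratio (horizontal axis) of the enzymes and of genes in neighbouring lists (vertical axis), GANT61 against the chip 2 control on the left and cyclopamine against the chip 1 control on the right. Each point is a gene above background on at least 1 array of the pair, the bar is the list's median and dashed lines mark 1.5-fold. With GANT61 the ATF4 list has a median of 1.05 while the 3 enzyme groups have -0.40, 0.12 and -0.18. All lists were chosen with earlier results of these data known.

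Of 6 folate uptake and retention genes with a probe, 4 were tested with GANT61, and 3 were at least 1.5-fold lower than in the chip 2 control and 0 higher (median -0.69), where 9.29% of all genes were lower. FOLR1, a folate receptor, had 5.76 with GANT61 and 7.23 in the chip 2 control, 2.76-fold lower, and its other measured probe had -0.99. SLC19A1, the reduced folate carrier, had 6.48 with GANT61 and 7.20 in the chip 2 control, a log2 ratio of -0.73. GGH, which removes glutamates from stored folate, had -0.66. FOLR1 ranged from -1.75 to -0.83 over the 7 normalisation and probe settings and SLC19A1 from -0.92 to -0.49. Without background correction 1 of the 4 genes was at least 1.5-fold lower, and with an offset of 50, 2 were. With cyclopamine SLC19A1 was on the other side, at 7.94 against 7.16 in the chip 1 control (0.78, but 0.41 and short of 1.5-fold in the series table), while FOLR1 had -0.32 and GGH -0.06.

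Among other neighbours, SFXN2, a sideroflexin, was at least 1.82-fold lower with GANT61, where it was below background. Its log2 ratio was -0.49 without background correction and -0.57 with an offset of 50, both short of 1.5-fold. SFXN1, a mitochondrial serine carrier, had -0.20. TYMS, the thymidylate synthase, had -0.44 with GANT61 and -0.28 with cyclopamine. MTHFS, which returns 5-formyltetrahydrofolate to use, had -0.58 with GANT61, just short of 1.5-fold, and 0.43 with cyclopamine. With GANT61 MTHFS had -0.59 in the series table and -0.71 under median scaling, both past 1.5-fold. The medians of all genes were also lower there, at -0.11 and -0.20. In the methionine cycle MAT2A, which makes S-adenosylmethionine, had 11.20 with cyclopamine and 12.35 in the chip 1 control, 2.22-fold lower, against a log2 ratio of 0.33 with GANT61. CTH, which makes cysteine from cystathionine, was 2.26-fold higher with GANT61 at its brightest probe (8.06 and 6.88 in the chip 2 control) and had 0.49 and 0.81 at the others. Of 6 purine synthesis genes, 0 were at least 1.5-fold apart with either compound. Of 9 proliferation genes tested with GANT61, 4 were at least 1.5-fold lower and 0 higher (median -0.48): CCNB1 (-1.11), RRM2 (-1.06), MKI67 (-1.05) and TOP2A (-0.96). Of 8 tested with cyclopamine, 3 were lower and 0 higher (median -0.39): TOP2A (-0.77), CDK1 (-0.74) and RRM2 (-0.59). Over all genes, 9.29% with GANT61 and 7.82% with cyclopamine were lower by that fold. Their part in the values of the enzymes was not tested.

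More of the enzymes were at least 1.5-fold apart between the control cultures than with either compound, as was the case for genes in general. Taking chip 1 over chip 2, 3 of the 8 were at least 1.5-fold higher and 1 lower, where 29.4% and 34.3% of 10905 genes were. PHGDH had 13.51 in the chip 1 control and 11.53 in the chip 2 control, 3.94-fold higher, at percentile 93.6 of all genes and 3.33 times the SD between probes (0.60 here). MTHFD1 had 7.97 in the chip 1 control and 6.50 in the chip 2 control, 2.76-fold higher. MTHFD1L had 9.63 in the chip 1 control and 8.59 in the chip 2 control, 2.06-fold higher. PHGDH ranged from 1.96 to 2.20 over the settings, whereas MTHFD1 had 0.84 under median scaling as well as in the series table.

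PSPH gave no common direction between the controls, since its brightest probe had a log2 ratio of -0.83, chip 1 minus chip 2, and the other 0.75. PSAT1, SHMT2, MTHFD2 and SHMT1 had -0.32, -0.49, 0.21 and -0.06, all below the SD between probes. Chip, culture and control treatment (DMSO or tomatidine) cannot be told apart in this comparison, and the cell type markers moved with it as given above. For PHGDH the order of levels was the chip 1 control, cyclopamine, the chip 2 control and GANT61, of which only the step between the chips (1.92 on the log2 scale, from cyclopamine to the chip 2 control) exceeded the SD between probes by more than 2 times.

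**Figure D4:**
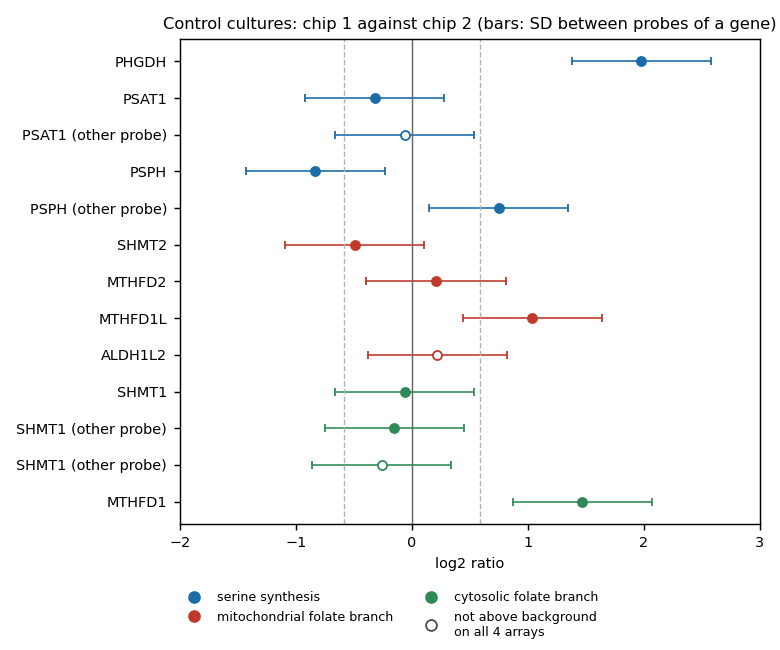
Log2 ratio (horizontal axis) of the 13 enzyme probes, chip 1 control against chip 2 control, with bars for the SD between probes of a gene and dashed lines at 1.5-fold. PHGDH at 1.98, MTHFD1 at 1.47 and MTHFD1L at 1.04 lie to the right, and the PSPH probes fall on opposite sides at -0.83 and 0.75.

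By the distance between levels centred over the 4 arrays, among 7306 genes above background on all of them, the genes most like PHGDH were MCM5, a subunit of the replicative helicase (distance 0.05), and HADHA, a mitochondrial fatty acid oxidation enzyme (0.08). PSAT1 was nearest to RSPRY1 (0.02) and RNF4 (0.04), and SHMT2 to ANXA2P2 and LARP4B (0.03 each). MTHFD2 was nearest to ACTB, the beta-actin gene (0.01), and MTFR1 (0.04). With 4 arrays this is a description of levels that were high on one chip (PHGDH) or spread less over the arrays (the others). Those ran from 10.74 to 11.22 for PSAT1, 11.38 to 11.98 for SHMT2 and 9.97 to 10.19 for MTHFD2.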

How the data were processed

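Per the labels' protocols, biotin-labelled cRNA was hybridised to 4 BeadChip arrays and scanned with a BeadArray Reader. The deposited tables hold summarised bead intensity on a linear scale, with a detection p-value in the next column per the file headers. The deposited series table holds log2 intensity, and equalled the log2 of the intensity tables within 5e-09, so its scale is log2 with no centring. How the bead values were summarised is not stated in these sources.

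Intensities were background corrected and quantile normalised over all 4 arrays with neqc of limma 3.58.1 (R 4.3.3), with an offset of 16, which compresses ratios of dim probes. The steps were tested on simulated data. Probes were named from the platform annotation with symbols updated by Entrez identifier: 30111 had 1 symbol and were used, and 8 with several and 17108 with none were not. The probe with the highest mean level stood for a gene. A gene was tested where its detection p was under 0.01 on at least 1 array of the pair, and a difference of at least 1.5-fold was counted. With 1 array per group no test was made, and the number of arrays limits the precision. The spread between different probes of a gene, both above background, covers neither culture nor labelling. For a gene below background on 1 array of a pair, the lowest detected level of that array was used, or the gene's own level where higher. This gave an "at least" fold.

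RefSeq lists 14 pseudogenes named after the members (7 of MTHFD2, 4 of PSAT1, and 1 each of PSPH, SHMT1 and MTHFD1). Probe sequences were not used, so whether probes also bind these was not checked.

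Members, gene lists and thresholds were chosen with earlier results of these data known. Named genes are the 9 members, genes of the neighbouring lists (not the cell type markers) at least 1.5-fold apart with a compound, and up to 2 bright genes per list; others are given as named after their values were seen.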

Additional observations from a re-analysis of the deposited data

How the results depend on the processing

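The 9 alternatives were normalisation within each chip, median scaling, no background correction, the series table, an offset of 50, averaged probes, and 3 other detection filters. No enzyme at least 1.5-fold apart changed sign. Median scaling gave 2 enzymes at least 1.5-fold lower with GANT61 (PSPH at -1.24 and PHGDH at -0.61) in place of 1. The enzymes' median with cyclopamine was -0.32 under median scaling (all genes -0.25) and also -0.32 on the series table (all genes -0.19). Averaging probes left 0 enzymes at least 1.5-fold lower between the controls, chip 1 over chip 2, since the PSPH probes oppose each other. The other counts and medians of the enzymes moved by less than the SD between probes or 1.5 times. Normalising chip 2 without the chip 1 arrays gave -1.08 for PSPH and -0.38 for PHGDH with GANT61. For the 3 lists that follow, and the list genes given above with other settings, the alternatives were chosen after seeing the data. The count of ATF4 list genes at least 1.5-fold higher with GANT61 was 8 or 9. The folate uptake and retention genes at least 1.5-fold lower with GANT61 numbered 1 without background correction in place of 3. With cyclopamine 1 was lower under median scaling in place of 0. Proliferation genes at least 1.5-fold lower with cyclopamine numbered 5 under median scaling in place of 3, and 2 without background correction or with an offset of 50. No paired analysis was possible because each group holds 1 array, and no array could be left out. Signal near background limits ALDH1L2, SHMT1's dimmer probes and MTHFD1 on chip 2.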

Other observations

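The control cultures also differed in genes around the one-carbon route. CBS, which condenses homocysteine with serine and is named here after its value was seen, had a normalised log2 intensity of 10.27 in the chip 1 control. It was above background on neither chip 2 array, so in the main setting it was at least 29.7-fold higher in the chip 1 control. Its log2 ratio ranged from 4.45 to 5.74 over the 7 normalisation and probe settings, and the lowest is a smaller fold than that bound. CTH, the next enzyme of that path, was 6.16-fold higher in the chip 1 control (9.51 and 6.88 in the chip 2 control), with log2 ratios of 2.11 and 2.49 at its other probes. AHCY, which hydrolyses S-adenosylhomocysteine, was 2.58-fold lower in the chip 1 control. TYMS was 3.31-fold higher in the chip 1 control. These values come from 1 array each and carry the same difference in cell type markers as the enzymes.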
